A study of Rattus norvegicus with 6 samples.

Results

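The transcripts of the terminal complement pathway and of the C5a receptors were examined in rat lung. The 10 genes were taken by name from 40995 genes in the deposited tables: C5, C6, C7, C8a, C8b, C8g and C9, which encode the terminal components, C5ar1 and C5ar2, which encode the receptors of C5a, and Cd59, which encodes a membrane inhibitor of the terminal complex. Lung tissue of 3 wild-type (WT) rats was compared with that of 3 knockout (KO) rats of the crTMPRSS2 line, all on a Sprague-Dawley background and untreated. The line was made by CRISPR/Cas9 editing of Tmprss2, and no further allele or agent is named. The sources used here do not state the rats' sex, age or litter. Because the KO rats come from 1 edited line, differences between that line and the WT rats other than the edit cannot be told apart from the edit itself. The members were chosen by pathway with the KO over WT fold changes and the C5 counts of these libraries already known. Values of the 10 genes are therefore given as a description, and no p-value is printed for them.

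Complement is a cascade of plasma and tissue proteins that marks and lyses targets. Its classical, lectin and alternative arms converge on convertases that cleave C5 into C5a, a small chemoattractant peptide, and C5b, which starts the membrane attack complex. C5b binds C6 and C7, C8 joins as a trimer of alpha, beta and gamma chains, and C9 polymerises into the pore. CD59 blocks the C9 step on host cells. C5a acts through C5AR1, a G protein-coupled receptor of myeloid cells, and binds C5AR2, which does not couple to G proteins in the usual way. The liver makes most circulating terminal components, and lung cells make some of them locally.

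Each library held 29933359 to 36895162 gene counts. Levels are given as CPM (counts scaled to a common library total, on TMM library sizes, which correct for RNA composition) when libraries are compared. They are given as the deposited FPKM, which also divides by gene length, when genes are compared. The targeted gene, Tmprss2, stood at 50.5 to 65.7 CPM in WT and at 46.1 to 56.4 CPM in KO. Without WT replicate 1, WT stood at 62.0 and 65.7 CPM, above every KO library (log2 KO over WT -0.36, edgeR adjusted p = 0.0589). Tmprss2 mRNA was thus present in all 6 libraries, and its level does not check the labels. Markers of lung epithelium summed to 22053 to 35400 CPM in all 6 libraries. WT replicate 1 differed from the other 5 libraries in its tissue markers. Its striated muscle markers summed to 7779 CPM against 58.4 to 292 CPM elsewhere, and its squamous epithelium markers to 3202 CPM against 1.78 to 3.79 CPM. The muscle marker Myh6 went the other way, at 9.85 CPM in WT replicate 1 against 42.1 to 250 CPM elsewhere. It made up most of the muscle sum in each of the other libraries. Differences of the 8 detected genes are therefore given with and without that library.

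Of the 10 genes, 8 passed the filter on low counts and entered the test over all genes. C5 fell in KO and was the 1 gene of these 8 that passed, while 0 rose (edgeR quasi-likelihood test, Benjamini-Hochberg adjusted p under 0.05 over 18464 genes). Over all tested genes, 0.0542% passed, 0.0379% as lower in KO and 0.0162% as higher. Because the genes were chosen with this contrast known, nothing is read from the comparison of these shares. The groups did not overlap in CPM for 3 of the 8, C5, C5ar1 and C5ar2, and KO was the lower group in each. Over all tested genes the groups did not overlap for 22.8%, with KO lower for 11.4% and higher for 11.4%. Without WT replicate 1, C5, C5ar2 and C7 passed as lower and 0 of the 8 as higher. Of 18994 genes in that fit 3.99% passed, 2.34% as lower and 1.65% as higher. The groups then did not overlap for C5, C5ar1, C5ar2 and C7, with KO lower, as against 34.6% of all genes, where KO was lower for 17.5% and higher for 17.1%. The median log2 fold change (KO over WT) of the 8 was -0.11, and that of all tested genes was -0.003. The 7 tested genes other than C5 had a median of 0.06, with 3 below 0, and a median of -0.25 without WT replicate 1, with 4 below 0.

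**Figure D1:**
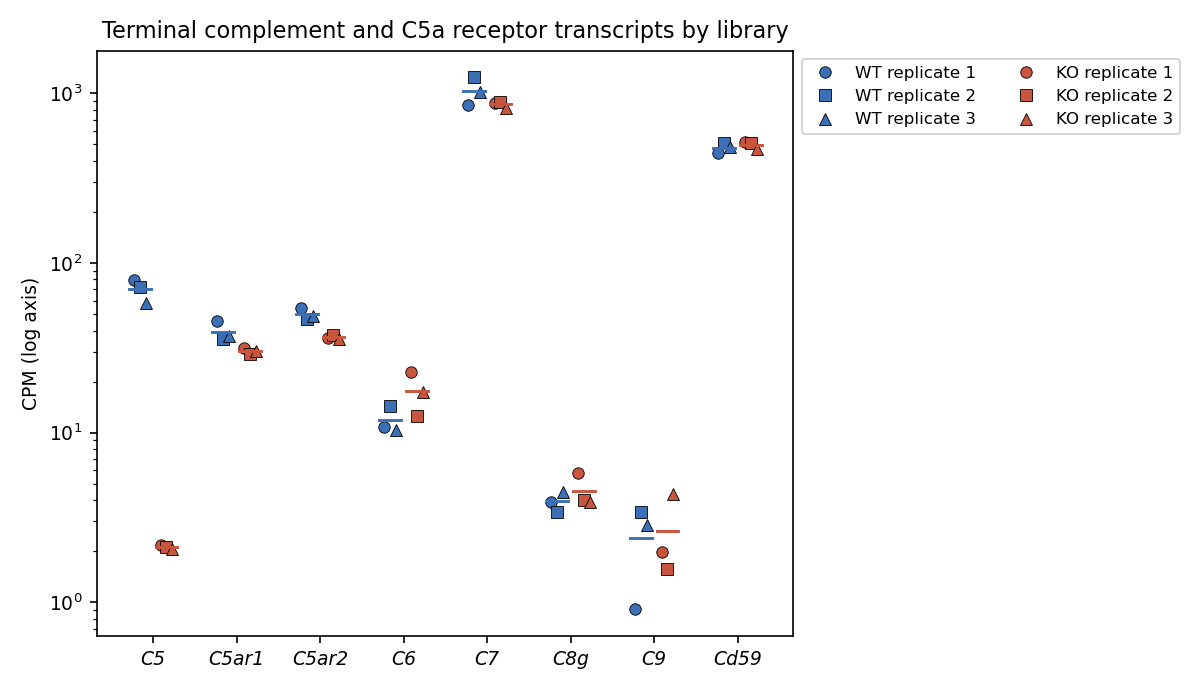
CPM on a log axis for the 8 detected genes, with 1 point per library (blue WT, red KO; the symbol gives the replicate) and a bar at each group mean. C5 lies between 57.9 and 79.1 CPM in WT and between 2.07 and 2.17 CPM in KO; C8a and C8b, at 0 in all 6 libraries, are not drawn.

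C5, the source of C5a and of the first piece of the membrane attack complex, was nearly lost from the KO lungs. The gene lies on the minus strand of chromosome 3, from 18270696 to 18361994 in mRatBN7.2, the build of all coordinates below unless another is named. WT replicates 1, 2 and 3 gave C5 levels of 79.1, 72.4 and 57.9 CPM. KO replicates 1, 2 and 3 gave 2.17, 2.11 and 2.07 CPM. Every KO library thus lay far below the lowest WT library, and the KO mean was 3.03% of the WT mean. WT averaged 69.8 ± 10.8 CPM and KO 2.12 ± 0.0485 CPM (SD, n = 3 each). This is a log2 fold change of -5.04 (SE 0.16), with a 95% confidence interval of -5.42 to -4.66. Without WT replicate 1 it was -4.94 (SE 0.13, interval -5.22 to -4.66), and the KO mean was 3.25% of that of the 2 remaining WT libraries.

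C5 transcripts were still counted in every KO library. The raw C5 counts were 2337, 2402 and 2161 in WT and 67, 67 and 65 in KO. The SD of the KO counts was 1.15, which is smaller than the 8.14 that Poisson counting alone would give at their mean of 66.3. In WT the SD was 125 against a Poisson value of 48.0. Both Poisson values take each count as independent, and they would be larger if both reads of a pair were counted. The authors' deposited table gives C5 a log2 fold change of -5.05, with mean normalised counts of 2250 in WT and 67.8 in KO. C5 was the 1 gene of the 10 among the 192 genes that the table lists. Gene totals do not show which exons the remaining KO reads cover.

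The promoter of C5 is shown because C5 is the transcript that differed, that of C5ar2 because it is the more abundant C5a receptor transcript here, and that of C8a because no read was counted for C8a in any library. Each run is 300 bases, from 250 before to 50 after the annotated start, 5′ to 3′ on the gene's own strand, from RefSeq on build GRCr8. The deposited tables use another build, and the start used by these lungs was not measured. RefSeq promoters were matched by gene ID for 5 of the 10 genes: C5, C5ar2, C6, C8a and C8b. Capitals mark matches, on either strand, to 5 short motifs. The HNF1 half-site, a motif of liver genes, was searched as GTTAAT. The STAT site, a motif of cytokine-responsive genes, was searched as TTCNNNGAA. The core promoter motifs were the TATA box, searched as TATAAA, the CCAAT box, searched by the letters in its name, and the GC box, searched as GGGCGG. None of the matches shown overlaps another.
C5, chr3:38759419-38759718, minus strand: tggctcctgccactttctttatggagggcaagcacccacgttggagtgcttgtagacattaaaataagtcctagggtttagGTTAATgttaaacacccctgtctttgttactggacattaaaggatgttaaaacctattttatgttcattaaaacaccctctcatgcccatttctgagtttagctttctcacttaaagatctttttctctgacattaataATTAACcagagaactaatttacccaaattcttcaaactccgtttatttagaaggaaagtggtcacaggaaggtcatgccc
C5ar2, chr1:86070504-86070803, minus strand: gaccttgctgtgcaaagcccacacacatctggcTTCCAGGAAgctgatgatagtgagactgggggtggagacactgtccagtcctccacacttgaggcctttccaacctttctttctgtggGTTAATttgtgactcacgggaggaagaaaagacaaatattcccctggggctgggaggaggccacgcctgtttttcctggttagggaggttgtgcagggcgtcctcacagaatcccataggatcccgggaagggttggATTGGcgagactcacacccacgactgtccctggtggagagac
C8a, chr5:124866582-124866881, minus strand: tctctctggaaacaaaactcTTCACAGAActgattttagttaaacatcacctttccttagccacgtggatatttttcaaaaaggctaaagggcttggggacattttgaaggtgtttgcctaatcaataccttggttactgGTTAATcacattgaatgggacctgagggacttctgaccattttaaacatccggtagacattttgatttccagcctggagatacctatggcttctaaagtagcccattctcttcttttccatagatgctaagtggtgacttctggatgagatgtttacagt

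In the C5 window the matches were the GTTAAT sequence in 2 places, beginning 169 and 30 bases before the start, the second on the opposite strand. GTTAAT was found in 7.45% of 33469 RefSeq promoters of the same length. The C8a window held GTTAAT in 1 place and TTCNNNGAA in 1 place, and the C5ar2 window held these and CCAAT, each in 1 place. TTCNNNGAA was found in 8.87% of all promoters and CCAAT in 37.5%. The C6 window held TATAAA, found in 14.2% of all promoters, and the C8b window held no match. GGGCGG, found in 33.1% of all promoters, was in none of the 5 windows. The C5 window was 38.0% G and C, against a median of 51.7% over all promoters. No match is evidence of binding, and no regulatory readout was measured.

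None of the tested genes beside C5 passed. Within 500000 bases of the C5 gene body the deposited table lists 28 genes, of which 17 were tested. Of these, 0 passed in edgeR with all 6 libraries, 0 without WT replicate 1 and 0 in DESeq2. Over all tested genes, edgeR passed 0.0542% with all 6 libraries and 3.99% without WT replicate 1. At such shares few or none of 17 genes would pass, so these counts do not set the neighbours apart from other genes. An unadjusted edgeR p under 0.05 was found for 2 of the 17, Cntrl and LOC108350355. Over all tested genes the share was 11.3%, so this count is near the background and nothing is read from it. The median log2 fold change of the 17 was -0.05, and the lowest was -0.32. The nearest tested gene on the side of lower coordinates was Traf1, an adaptor of TNF receptors, 28533 bases away. It stood at 14.4, 11.4 and 10.8 CPM in WT and at 10.2, 12.4 and 12.2 CPM in KO, so the groups overlapped. On the log2 scale KO and WT differed by -0.07 (SE 0.17; edgeR adjusted p = 0.86), and by 0.07 without WT replicate 1. On the other side Cntrl, which encodes the centrosomal protein centriolin, lies 66153 bases away. It stood at 25.8, 45.8 and 43.0 CPM in WT and at 50.5, 56.3 and 57.0 CPM in KO, and KO was 0.51 higher on the log2 scale (SE 0.21; edgeR adjusted p = 0.425). WT replicate 1 was the lowest library for Cntrl, and without it the difference was 0.30 (SE 0.08; edgeR adjusted p = 0.0623). LOC108350355, singled out only after its values were seen, was 2.43 higher in KO on the log2 scale (SE 0.81; edgeR adjusted p = 0.359), and 1.92 higher without WT replicate 1, at no more than 0.777 CPM in any library.

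**Figure D2:**
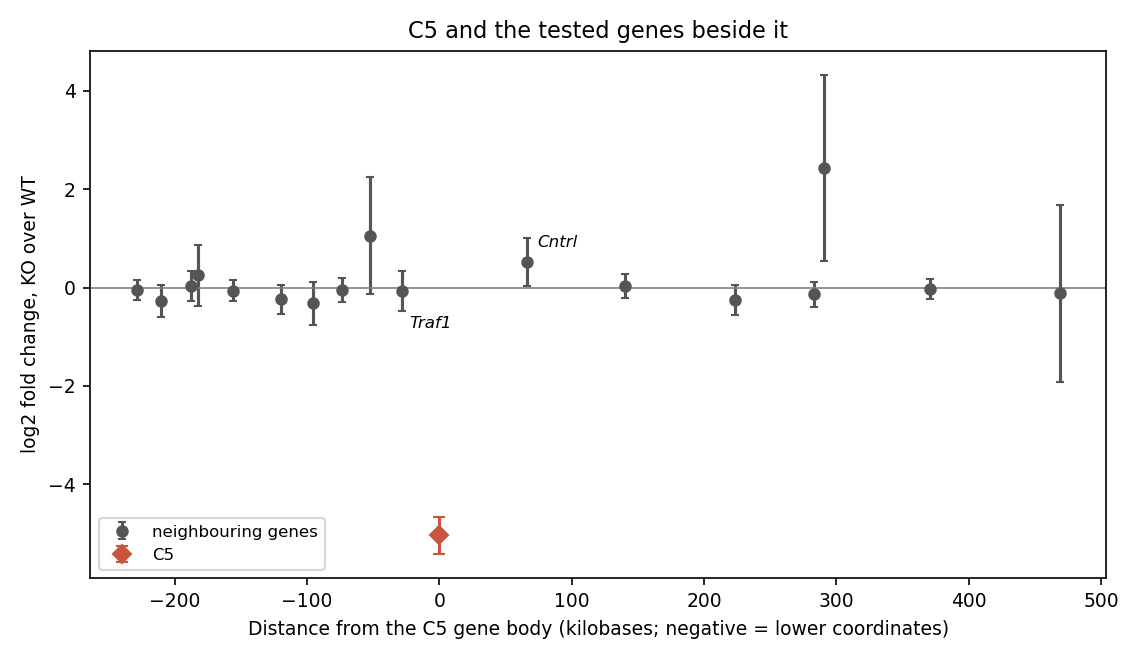
log2 fold change (KO over WT, all 6 libraries only) with 95% confidence intervals for C5 and the 17 tested genes within 500000 bases, against distance from the C5 gene body in kilobases. C5 lies at -5.04, while the lowest of its neighbours lies at -0.32.

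The genes whose profile over the 6 libraries was most like that of C5 were sought among 13946 genes. Likeness was the root mean square difference in log2 CPM after both genes were centred on their WT mean. Because C5 differs so much between genotypes, a gene must be similarly low in KO to rank near it. The nearest was Lcn2, an iron-sequestering protein of innate immunity on the same chromosome (chromosome 3, 15680688 to 15684033), at a root mean square difference of 0.77. Lcn2 stood at 270, 229 and 116 CPM in WT and at 3.01, 2.65 and 3.06 CPM in KO. In both genes WT replicate 1 was the highest and WT replicate 3 the lowest WT library. The WT libraries entered the measure of likeness, so this order is part of the choice and adds nothing to it. The genes named next had the same order. The log2 fold change of Lcn2 was -6.14, and -5.89 without WT replicate 1. Next were Pla2g2a, a secreted phospholipase A2 (chromosome 5, 151076442 to 151079019), at 1.20, and Sv2c, a synaptic vesicle protein (chromosome 2, 27232933 to 27428479), at 1.34. Pla2g2a stood at 57.0, 38.4 and 19.8 CPM in WT and at 3.04, 1.32 and 5.71 CPM in KO, a log2 fold change of -3.51 (-3.11 without WT replicate 1). Sv2c stood at 2.23, 1.33 and 1.29 CPM in WT and at 0.194, 0.063 and 0.128 CPM in KO, on 2 to 6 counts in a KO library. It reached the required mean of 1 CPM only in WT, so its entry into the ranking depended on the group in which it was high. Pla2g2a and Sv2c did not pass in edgeR with all 6 libraries but passed without WT replicate 1, whereas Lcn2 passed in both fits. These calls rest on the values by which the genes were ranked and add nothing to the ranking.

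The C5a receptor transcripts were both lower in KO than in WT, by far less than C5. C5ar1 (minus strand of chromosome 1, 76948622 to 76959826) stood at 45.4, 35.8 and 37.1 CPM in WT and at 31.7, 29.0 and 30.3 CPM in KO. All KO libraries lay below all WT libraries, and WT replicate 1 was the highest. The means were 39.4 ± 5.25 and 30.3 ± 1.36 CPM (SD, n = 3 each), with a log2 fold change of -0.38 (SE 0.12, interval -0.66 to -0.09). C5ar1 did not pass the adjusted threshold, with or without WT replicate 1 (log2 fold change -0.26 without it).

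C5ar2 (minus strand of chromosome 1, 76930381 to 76945432) stood at 54.1, 46.6 and 49.0 CPM in WT and at 36.2, 37.6 and 35.8 CPM in KO. The KO libraries were again all below the WT libraries. The means were 49.9 ± 3.83 and 36.6 ± 0.946 CPM (SD, n = 3 each), with a log2 fold change of -0.45 (SE 0.10, interval -0.68 to -0.22). C5ar2 did not pass in edgeR with all 6 libraries; it passed in DESeq2 and, in edgeR, without WT replicate 1, where the log2 fold change was -0.39 (SE 0.07).

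The receptor genes lie 3190 bases apart on the same strand, with 1 annotated pseudogene between them. By FPKM, the C5ar2 level was 1.37 ± 0.0761 times the C5ar1 level in WT and 1.30 ± 0.0870 times in KO (SD, n = 3 each), and the ranges of this ratio overlapped. The C5 level was 1.05 to 1.36 times the C5ar1 level in WT and 0.0458 to 0.0488 times in KO. C5ar2 overlaps LOC120098270, on the same strand, by 1195 bases, and reads in the shared part could be split or dropped by the counting.

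Markers of myeloid cells, which carry C5a receptors, did not all differ in 1 direction. The 8 monocyte and macrophage markers summed to 13931, 9468 and 9223 CPM in WT and to 8523, 10692 and 9987 CPM in KO. These sums overlapped, but Lyz2 made up most of them, at 8098 CPM or more in every library. Their overlap is therefore mainly that of Lyz2 and says little of the other markers. Csf1r and Adgre1 also overlapped between the groups. Cd68 stood at 51.8 to 70.1 CPM in WT and 39.2 to 50.3 CPM in KO, Mrc1 at 114 to 148 and 88.2 to 107 CPM, and Cd14 at 27.6 to 42.5 and 21.9 to 25.1 CPM. These 3, singled out after their values were seen, were lower in every KO library than in any WT library, as the receptors were. Itgam was higher in every KO library. Over all tested genes, KO was the lower group without overlap for 11.4% and the higher for 11.4%. Of the 7 tested markers of this list, 5 had a log2 fold change below 0, the median was -0.17, and 0 passed in edgeR with all 6 libraries. Without WT replicate 1, 1 passed as higher and 1 as lower, with a median of -0.03. In that fit 1.65% of all genes passed as higher and 2.34% as lower. The 8 neutrophil markers summed to 17.6, 75.1 and 54.2 CPM in WT and to 51.8, 69.9 and 64.3 CPM in KO, and 0 passed in either fit. With all 6 libraries 1 of 8 was below 0, where 9286 of all 18464 tested genes were. Their median log2 fold change was 0.10 with all 6 libraries and -0.21 without WT replicate 1, so its sign depended on that library. WT replicate 1 thus had the highest macrophage sum and the lowest neutrophil sum. No marker of either list was at 0 in all libraries. Fewer receptor-bearing cells and less RNA per cell cannot be told apart in bulk tissue, and the part of the cell mixture in the receptor values was not tested.

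**Figure D3:**
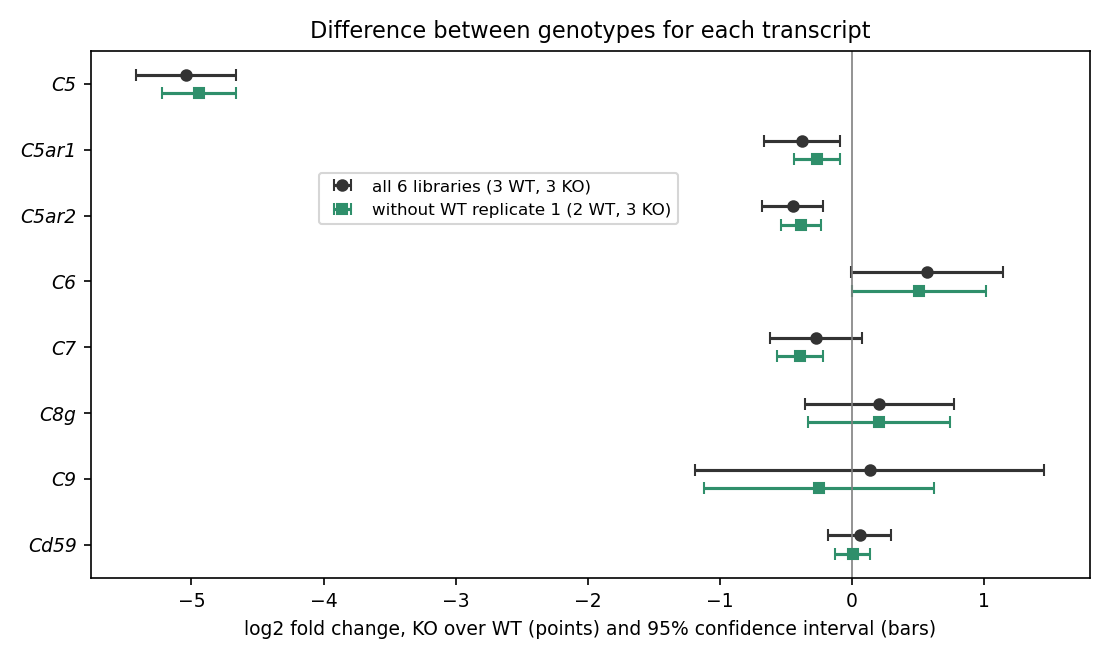
log2 fold change (KO over WT) and 95% confidence interval of each tested gene, with all 6 libraries (circles) and without WT replicate 1 (squares). C5 lies near -5 in both fits, C5ar1 and C5ar2 lie between -0.45 and -0.26, and the C9 interval is the widest.

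Among the components that follow C5, C7 was by far the most abundant transcript. C7, which anchors the growing complex to the membrane, lies on chromosome 2 (54088116 to 54165102, minus strand). It stood at 848, 1241 and 1016 CPM in WT and at 871, 888 and 817 CPM in KO. WT replicate 1 lay among the KO libraries, whereas the other two WT libraries were above them. The means were 1035 ± 197 and 858 ± 37.3 CPM (SD, n = 3 each), and the log2 fold change was -0.27 (SE 0.15, interval -0.62 to 0.08). C7 did not pass with all 6 libraries, but it passed without WT replicate 1 in edgeR, at -0.39 (SE 0.08, interval -0.57 to -0.22).

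The summed levels of stromal and pleural markers were lower in every KO library than in any WT library. The 6 fibroblast markers summed to 9001, 5928 and 5180 CPM in WT and to 4159, 3965 and 4150 CPM in KO. The collagen genes Col1a1, Col1a2 and Col3a1 made up most of these sums. Pdgfra, Dcn and Lum overlapped between the groups, with Pdgfra at 181 to 203 CPM in WT and 181 to 247 CPM in KO. Of the 6 fibroblast markers, 5 had a log2 fold change below 0 and 0 passed with all 6 libraries. Without WT replicate 1, 3 passed as lower, where 2.34% of all genes did. The 6 mesothelium markers summed to 428, 392 and 413 CPM in WT and to 279, 254 and 298 CPM in KO. Of them, 0 passed with all 6 libraries and 5 passed as lower without WT replicate 1, beside the same 2.34%. Krt19 made up most of each mesothelium sum, at 219 to 283 CPM in WT and 174 to 191 CPM in KO. Msln overlapped between the groups, at 62.4 to 87.0 and 36.3 to 67.7 CPM. Krt19, Upk3b, Lrrn4, Wt1 and Bnc1 were lower in every KO library, as were 11.4% of all tested genes. The fibroblast sum was highest in WT replicate 1, the WT library in which C7 was lowest. Their part in the C7 difference was not tested.

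C6, which binds C5b first, was higher in KO on average, with overlapping groups. C6 (chromosome 2, 53846027 to 53921279, plus strand) stood at 10.9, 14.4 and 10.3 CPM in WT and at 22.8, 12.6 and 17.4 CPM in KO. KO replicate 2 lay below WT replicate 2. The means were 11.9 ± 2.20 and 17.6 ± 5.11 CPM (SD, n = 3 each), with a log2 fold change of 0.57 (SE 0.24, interval -0.01 to 1.14) and 0.51 without WT replicate 1 (SE 0.23), and C6 did not pass in any of the 14 alternative fits. C6 and C7 lie 166.8 kilobases apart on chromosome 2, on opposite strands with 3 genes between them, and their mean differences had opposite signs. The C7 level was 52.2 to 65.6 times the C6 level by FPKM in WT and 25.5 to 47.2 times in KO.

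The transcripts of the C8 trimer were unevenly present. C8a and C8b, which encode the chains that insert into the membrane, had 0 counts in all 6 libraries. If counts are independent, this allows a level of up to 0.1 CPM in the shallowest library (3 counts of its total, counting error only). The limit is higher if both reads of a pair were counted. C8a and C8b lie 10.6 kilobases apart on chromosome 5, C8b at 119535009 to 119572565 (plus strand) and C8a at 119583168 to 119637675 (minus strand). C8g, which encodes the gamma chain, a lipocalin that is not part of the pore, stood at 3.93, 3.41 and 4.50 CPM in WT and at 5.76, 4.04 and 3.89 CPM in KO. Its groups overlapped, and the log2 fold change was 0.21 (SE 0.24, interval -0.36 to 0.77), and 0.20 without WT replicate 1. C8g (chromosome 3, 8320495 to 8323495, minus strand) shares 953 bases with Fbxw5 on the opposite strand, which stood at 84.8 CPM in WT. Since the sources used here do not say whether counting used strand, reads of the pair may not be told apart, and the C8g level is uncertain.

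C9, the pore-forming subunit, was the most variable of the detected transcripts. C9 (chromosome 2, 55573094 to 55621345, plus strand) stood at 0.914, 3.41 and 2.87 CPM in WT and at 1.97, 1.58 and 4.37 CPM in KO, from raw counts of 27 to 137. The coefficient of variation was 54.7% in WT and 57.2% in KO, against 7.06% and 5.27% for Cd59. The log2 fold change was 0.13 (SE 0.56, interval -1.19 to 1.46). It was -0.25 without WT replicate 1 and -0.44 without KO replicate 3, so these data give it no direction. Of 8 hepatocyte markers, Fgb and Apoh were at 0 in every library and Alb reached at most 0.255 CPM. Serpina1, which macrophages and other cells also make, supplied nearly all of the hepatocyte sum, which was 59.6, 42.4 and 30.2 CPM in WT and 27.8, 25.6 and 28.4 CPM in KO. That sum was lower in every KO library than in any WT library, and its part in the values above was not tested.

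Cd59, the inhibitor of C9 assembly, showed the smallest difference. Cd59 (chromosome 3, 90459085 to 90477571, plus strand) stood at 443, 510 and 483 CPM in WT and at 515, 512 and 468 CPM in KO. The groups overlapped, with WT replicate 1 lowest. The means were 479 ± 33.8 and 499 ± 26.3 CPM (SD, n = 3 each), and the log2 fold change was 0.06 (SE 0.10, interval -0.18 to 0.30), and 0.01 without WT replicate 1 (SE 0.06). C8g and Cd59 share chromosome 3 with C5, 9.95 and 72.1 megabases away, and neither differed beyond the spread between libraries.

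Compared per length, the loss of C5 changed its place among the 8 detected genes. In WT the mean FPKM fell in the order Cd59 (238 ± 15.2), C7 (215 ± 39.6), C5ar2 (14.6 ± 1.23), C5 (12.7 ± 2.04), C5ar1 (10.7 ± 1.51), C6 (3.68 ± 0.668), C8g (2.79 ± 0.388) and C9 (1.14 ± 0.619; SD, n = 3 each). The WT ranges of Cd59 and C7 overlapped, as did those of C5ar2 with C5 and of C5 with C5ar1, so these neighbours did not differ beyond their spread. In KO, C5 stood last of the 8, at 0.383 ± 0.00905 FPKM, below every C9 value (0.745 to 2.07 FPKM). The other 7 kept their order in KO, at 247 ± 12.9 (Cd59), 177 ± 7.51 (C7), 10.6 ± 0.255 (C5ar2), 8.20 ± 0.384 (C5ar1), 5.44 ± 1.59 (C6), 3.21 ± 0.737 (C8g) and 1.25 ± 0.716 FPKM (C9). There the ranges of C6 and C8g overlapped, while those of Cd59 and C7 did not.

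**Figure D4:**
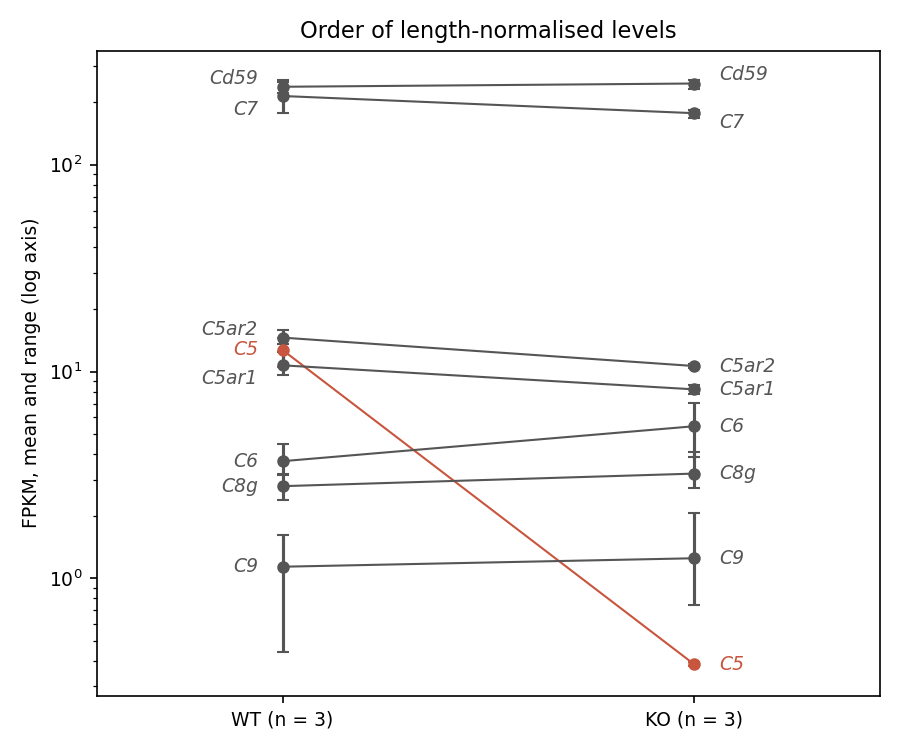
Mean FPKM on a log axis in WT and KO for the 8 detected genes; bars give the range of 3 libraries and C5 is in red. C5 moves from the fourth place in WT (12.7 FPKM) to the eighth in KO (0.383 FPKM), while the order of the other genes is kept.

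The rest of the pathway was followed in 50 further genes of complement and C5a signalling, of which 46 were tested. In edgeR with all 6 libraries 0 of the 46 passed, 15 had an unadjusted p under 0.05 (11.3% of all tested genes did), and DESeq2 passed 5: C2, C4a, Fcna and C4bpa as lower and Itgam as higher. DESeq2 passed 403 genes in all. With WT replicate 1 left out edgeR passed 10 of 47, 6 lower and 4 higher, where it passed 2.34% of all genes as lower and 1.65% as higher. C4bpa was the 1 gene of the 50 in the authors' deposited table, at a log2 fold change of -1.10.

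Genes of the classical pathway and C3 were all below 0 with all 6 libraries, though 0 of 9 passed. When WT replicate 1 was left out, 8 were below 0 and C4b was at 0.02. Over all tested genes, 9286 of 18464 were below 0 with all 6 libraries. Their median log2 fold change was -0.57, and -0.26 without WT replicate 1, which was the highest of the 6 libraries for all 9 genes. C4a, a precursor of the classical and lectin C5 convertase, averaged 1897 ± 95.7 CPM in WT against 1173 ± 97.9 CPM in KO (SD, n = 3 each; edgeR adjusted p = 0.108). C2, the protease of that convertase, stood at 168 ± 41.6 and 102 ± 5.08 CPM (edgeR adjusted p = 0.25). C1s, a protease of the C1 complex, stood at 81.6 ± 19.7 and 54.3 ± 0.842 CPM (edgeR adjusted p = 0.3). Without WT replicate 1 these 3 fell, by log2 fold changes of -0.66, -0.50 and -0.39. C4a and C4b are near-identical copies whose reads the counting could split, so the C4a value is uncertain.

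In the alternative pathway Cfb, the protease of the alternative convertase, averaged 624 ± 141 CPM in WT against 438 ± 15.1 CPM in KO (SD, n = 3 each). It fell in the fit without WT replicate 1 (log2 fold change -0.31, edgeR adjusted p = 0.0194), from -0.51 with all 6. Cfd and Cfp had log2 fold changes of -0.43 and 0.12 with all 6 libraries, and of -0.05 and 0.26 without WT replicate 1, and passed in neither fit. In the lectin pathway 0 of 7 tested genes passed with all 6 libraries, where Fcna, a ficolin, stood at -0.83, the collectin gene Colec10 at 1.05 and Fcnb, a myeloid ficolin, at 0.66. Fcnb rose without WT replicate 1, at 1.00 (SE 0.20, edgeR adjusted p = 0.0208).

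Among the 8 convertase regulators C4bpa, the alpha chain of C4b-binding protein, had the largest difference. It stood at 40.0, 37.3 and 27.2 CPM in WT and at 16.5, 17.8 and 14.9 CPM in KO, with no overlap. Its log2 fold change was -1.09 (SE 0.17, edgeR adjusted p = 0.117), and it fell without WT replicate 1, at -0.97 (adjusted p = 0.00455). Cfi and Cd55, a protease and a membrane inhibitor of the convertases, stood at -0.54 and 0.43, and at -0.42 and 0.21 without WT replicate 1, and passed in neither fit.

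Other complement receptors lay mostly above 0, with 6 of 7 and a median of 0.18, where 9178 of all 18464 tested genes were above 0. Itgam, a chain of complement receptor 3, stood at 13.9, 17.5 and 18.3 CPM in WT and at 24.0, 27.3 and 25.0 CPM in KO. Itgax, the matching chain of complement receptor 4, stood at 42.4, 46.7 and 43.4 CPM in WT and at 62.3, 73.1 and 54.5 CPM in KO. Both groups of values were separate, neither gene passed with all 6 libraries (edgeR adjusted p 0.246 and 0.256), and both rose without WT replicate 1 (adjusted p 0.0197 and 0.0372). Cr2, a B cell receptor for C3 fragments, had a log2 fold change of 0.85 and passed in neither fit.

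The soluble inhibitors of the terminal complex and the carboxypeptidases that trim C5a did not pass in edgeR. With all 6 libraries the log2 fold changes of the 4 tested genes lay between -0.15 and -0.11, and 0 passed. In the fit that left out WT replicate 1 the 5 tested ranged from -0.11 to 1.08 and 0 passed; the highest was Cpb2, whose mean was 0.199 CPM in WT against 0.341 CPM in KO. Clu averaged 497 ± 80.0 CPM in WT against 447 ± 61.9 CPM in KO, Cpm at 427 ± 15.2 and 388 ± 39.9 CPM, and Cpn1 at 28.0 ± 2.03 and 25.8 ± 1.24 CPM (SD, n = 3 each). Among 8 genes of C5a receptor signalling 0 passed with all 6 libraries. Gna15, a G protein alpha subunit of blood cells, Plcb2, a phospholipase C, and Gnai2, an inhibitory G protein alpha subunit, stood at -0.43, -0.34 and -0.28, and at -0.35, -0.35 and -0.11 without WT replicate 1. Without WT replicate 1, Gnai3 fell at -0.28 and the beta-arrestin gene Arrb1 rose at 0.23; both were named after their values were seen.

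**Figure D5:**
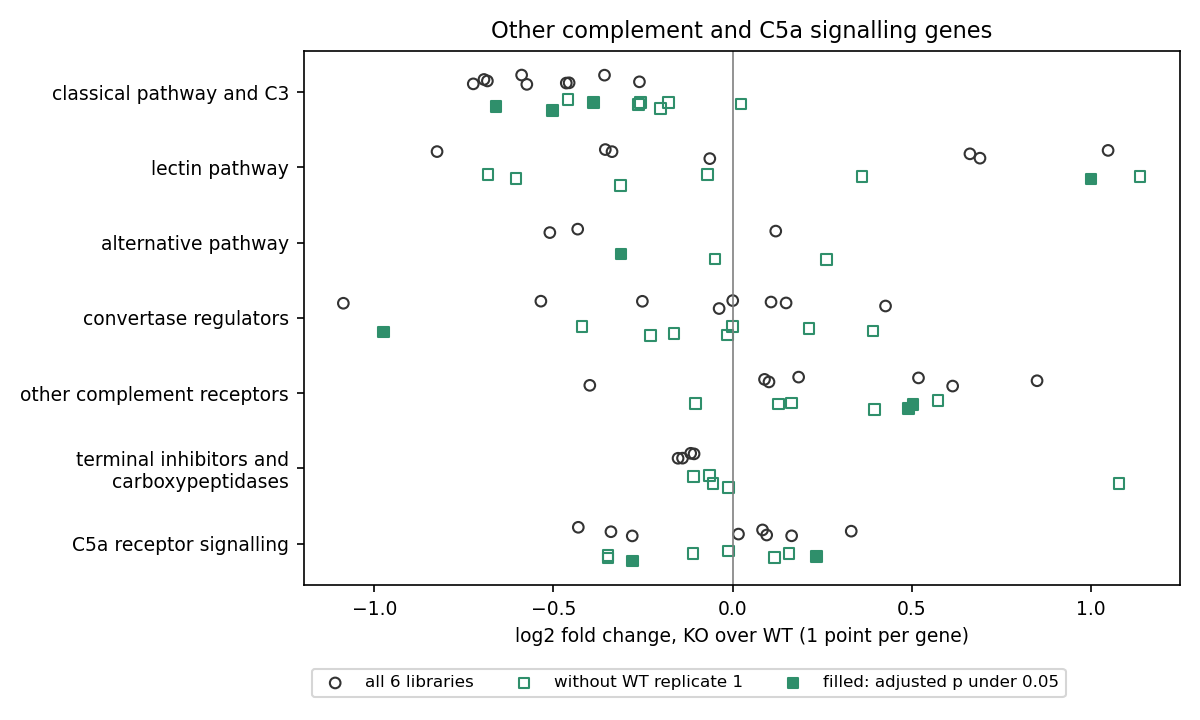
log2 fold change (KO over WT) of each tested gene in 7 lists of other complement and C5a signalling genes, with all 6 libraries (circles) and without WT replicate 1 (squares); filled symbols passed an adjusted p under 0.05. No circle is filled, 10 squares are filled, and all 9 circles of the classical pathway list lie below 0.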

How the data were processed

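Poly-A-selected RNA of 6 lungs was sequenced as paired reads. The submitters' processing notes name featureCounts 2.0.6, DESeq2 1.42.0, HISAT2 2.2.1 and StringTie 2.2.3, and build mRatBN7.2; tool roles, settings and strand handling: not given in the sources used here. Deposited were raw counts per gene, FPKM per gene (checked to be the count over gene length times 1 factor per library), and a comparison table with a signal per library (count over size factor), log2 fold changes and p-values. Even counts outnumbered odd ones among low counts, so counts appear to be reads, not pairs.

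Counts were analysed with edgeR 4.0.16 in R 4.3.3: filterByExpr (minimum count 10, minimum total 15), TMM, then glmQLFit and glmQLFTest on genotype alone. P-values were adjusted by Benjamini-Hochberg over 18464 genes. SE is the log2 fold change over the square root of F; intervals use the moderated degrees of freedom. Groups came from the sample titles, which call the rats biological replicates; no library duplicated another. The fit was tested on simulated data with known changes: it recovered most of the larger changes but missed many of the smaller ones, and more of its calls fell on unchanged genes than the threshold allows for.

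The members, lists and alternatives were chosen with earlier results of these data known. Named are the 10 genes, up to 3 genes with the smallest p of each pathway list and any that passed, the nearest tested gene on each side of C5 and any neighbour that passed, and the 3 genes most like C5 whose mean reached 1 CPM in WT or in KO. All 50 pathway symbols matched the deposited names. Alternatives were RLE and upper quartile scaling, DESeq2 1.42.0, no filter, a minimum count of 50, limma 3.58.1 on log2 FPKM plus 1 or plus 0.1, a replicate block, other windows around C5, and leaving out each library.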

Additional observations from a re-analysis of the deposited data

How the results depend on the processing

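C5 passed and was lower in KO in all 14 alternative fits, at log2 fold changes of -5.16 to -4.94 when 1 library was left out. On log2 FPKM with a pseudocount of 1 it was -3.30, and with 0.1 it was -4.72, since a pseudocount shrinks low levels. The count of genes passed in all was 10; it was 403 in DESeq2, 2 with the replicate block and 1 to 758 when 1 library was left out: 1 without KO replicate 1, 2 without KO replicate 2 or 3 or WT replicate 2, and 758 without WT replicate 1. Of the 10 genes described, DESeq2 passed 2, and leaving out 1 library passed 1 to 3, with 3 only without WT replicate 1. Of the other pathway genes, DESeq2 passed 5, and leaving out 1 library passed 0 to 10, with 10 only without WT replicate 1. Neighbours of C5 passed in none of the fits or windows with all 6 libraries; without WT replicate 1, 0 passed within 500000 bases and 1 within 1000000. Same-numbered WT and KO libraries did not deviate together (correlations -0.08, 0.03 and -0.08). The numbers thus gave no sign of a pairing, which a check on 3 libraries per group cannot exclude. The replicate block kept the C5 call. With 3 libraries per group, the interval of C9, on 27 to 137 counts per library, includes differences in either direction.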
